A study of Mus musculus with 9 samples.

Results

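Liver X receptors (LXR) are sterol-sensing nuclear receptors that, as heterodimers with retinoid X receptors (RXR), switch on genes that move cholesterol out of the cell. The receptor genes are Nr1h3 (LXR alpha, abundant in macrophages and liver) and Nr1h2 (LXR beta, widely expressed). Their established targets include the sterol exporters Abca1 and Abcg1, the lipid-carrying apolipoprotein Apoe, Mylip, which encodes the ubiquitin ligase IDOL that marks lipoprotein receptors for degradation, and Lpcat3, an enzyme that puts polyunsaturated fatty acids into membrane phospholipids. In myeloid cells that take up lipid, the pathway is best known for cholesterol efflux to apolipoprotein A-I and high-density lipoprotein. These 7 genes were chosen by name as receptors and targets of the pathway, and each was read from the row of the deposited table whose transcript identifiers map to its symbol. Each had exactly 1 row, out of 38887 rows in all, and all 7 were among the 14363 rows tested after the filter on low counts.

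Expression was measured by RNA-seq in mouse bone marrow-derived dendritic cells, which are antigen-presenting cells grown in culture from marrow precursors. Cells were given lysophosphatidic acid (LPA), a bioactive lysolipid recognised by a family of G protein-coupled receptors, for 2 h (3 libraries) or 6 h (3 libraries), or were left untreated (3 libraries). The series title ties the work to tumor-derived LPA and type I interferon in ovarian cancer, and the labels give no strain, LPA dose or vehicle, nor a time at which untreated cells were taken. Whether the 3 replicates of a group were separate mice or cultures is not stated, and p-values then cover only the spread between these libraries, which may be technical.

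Totals of estimated counts ran from 29628817 to 84596899 per library. All 14 dendritic cell markers were detected. Their sum was 8392 to 9133 CPM at 2 h, 7589 to 8216 at 6 h and 8211 to 9283 in untreated cells. CPM is the usual count scaled by library total. Among the 14, group means were at most 19.7 CPM for Zbtb46 and at most 13.3 CPM for Flt3. By edgeR's test 2 of the 14 were higher and 4 lower at 2 h than in untreated cells (19.3% and 19.2% of all tested rows). At 6 h 2 were higher and 5 lower (26.4% and 25.7% of all rows). Log2 fold changes at 2 h and 6 h were -1.87 and -2.13 for Ciita, and -0.60 and -0.78 for Batf3. Values were 0.41 and 0.42 for Ccr7, and 0.08 and 0.465 for Clec9a, which went the other way. All 12 macrophage markers were detected too, with sums of 22130 to 23410 CPM at 2 h, 21150 to 22420 at 6 h and 19860 to 21200 in untreated cells. Most of each sum was Lyz2 alone, which averaged 17540 CPM at 2 h, 16320 at 6 h and 16410 in untreated cells. Cd14 averaged 856 CPM at 2 h and 1078 at 6 h, against 106 in untreated cells. Fcgr1 went the other way, with averages of 23.6 CPM at 2 h and 13.8 at 6 h, against 32.6 in untreated cells. By the same test 2 of the 12 were higher and 2 lower at 2 h (19.3% and 19.2% of all tested rows). At 6 h 4 were higher and 6 lower (26.4% and 25.7% of all rows). Summed markers of B cells, T and NK cells and erythroid cells stayed under 2 CPM in every library, with the T and NK cell markers Cd3g and Ncr1 at 0 counts. Sums per library were 5.42 to 8.001 CPM for the 10 neutrophil markers, 7.55 to 10.9 CPM for the 7 mast cell and basophil markers, with Fcer1a and Tpsb2 at 0, and 1.25 to 2.31 CPM for the 6 stromal markers. LPA 2 h replicate 2, the deepest library, stood apart from the other two of its group, and among the LPA 2 h libraries it lay nearest the 6 h mean in 6 of the 7 LXR genes. The RNA is that of a whole culture, so fewer cells of a type and less RNA per cell cannot be told apart.

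The LXR genes did not move as one block. At 2 h of LPA, Abca1, Nr1h2 and Lpcat3 rose against untreated cells while Abcg1, Nr1h3 and Mylip fell, and Apoe did not pass the test. At 6 h Abca1, Nr1h2, Apoe and Lpcat3 were higher than in untreated cells and Mylip was lower, and Abcg1 and Nr1h3 did not pass. Abca1 averaged 728 ± 68.5 CPM at 2 h and 392 ± 29.4 CPM in untreated cells (mean ± SD, n = 3 each), a 1.86-fold difference. Abcg1 averaged 158 ± 24.9 CPM at 2 h and 244 ± 14.9 CPM in untreated cells, a fold of 0.649. These calls come from edgeR's quasi-likelihood test on all 9 libraries, with Benjamini-Hochberg adjustment over all tested rows and a threshold of 0.05.

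At 2 h, 6 of the 7 LXR genes were called, 3 higher and 3 lower, where 38.5% of all tested rows were called. At 6 h against untreated cells 5 of 7 were called, 4 higher and 1 lower, where 52.0% of all tested rows were called. Between 6 h and 2 h, 4 of 7 were called, 3 higher and 1 lower, against 48.7% of all rows. Median log2 fold changes of the 7 genes were 0.16 at 2 h and 0.37 at 6 h, with -0.00 and 0.01 over all tested rows. Groups did not overlap for 6 of the 7 genes at 2 h, 3 above (24.3% of all tested rows) and 3 below (24.0%), against 48.2% of rows in either direction. At 6 h this held for 5 genes (63.0% of rows), 4 above (32.0%) and 1 below (31.0%) untreated cells. Between 6 h and 2 h it held for 4 genes (58.9% of rows), 3 above (29.2%) and 1 below (29.7%). With a background this high, the counts alone say little about the pathway.

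**Figure D1:**
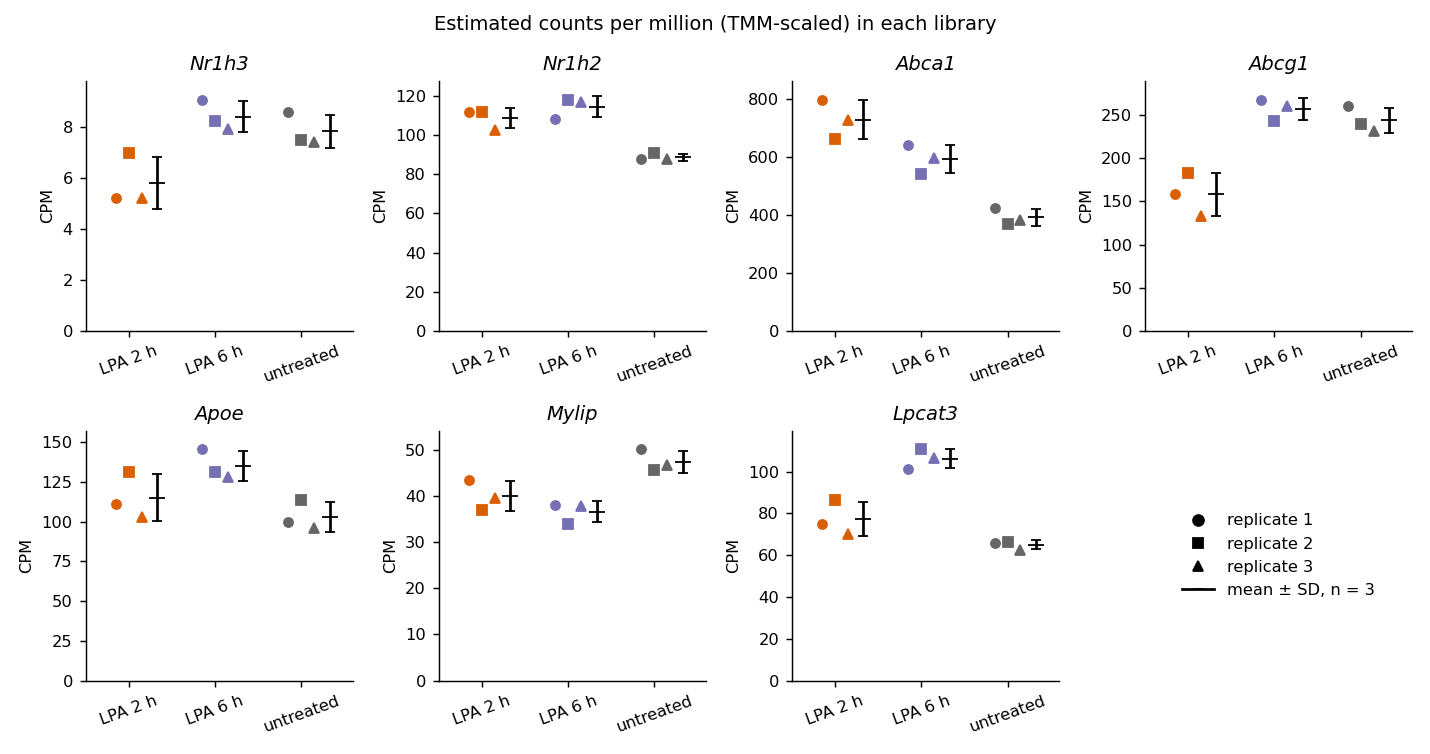
Estimated counts as CPM (TMM-scaled) of the 7 LXR genes in every library, by group, with replicate number as the symbol and mean ± SD beside the points (n = 3). Abca1 is higher in all 3 LPA 2 h libraries than in any other library, whereas Abcg1 and Nr1h3 are lowest in the LPA 2 h libraries.

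Nr1h3, the LXR alpha gene (chromosome 2, 91184061 to 91202834, minus strand, GRCm38), was the least abundant of the set. It had 5.21, 6.99 and 5.24 CPM in the 3 LPA 2 h libraries, against 8.61, 7.51 and 7.44 CPM in the untreated ones. All LPA 2 h libraries thus lay below all untreated libraries, although replicate 2 came close to them. The log2 fold change was -0.42 ± 0.12 (SE, adjusted p = 0.0134 by edgeR with Benjamini-Hochberg adjustment). That call was lost without untreated replicate 1 (adjusted p = 0.057) and without LPA 2 h replicate 1 (adjusted p = 0.0585), and without LPA 2 h replicate 2 the value was -0.59. At 6 h Nr1h3 had 9.10, 8.26 and 7.93 CPM, overlapping the untreated libraries and above all LPA 2 h libraries. Its log2 fold change was 0.10 at 6 h against untreated cells, with a 95% interval of -0.16 to 0.35, and 0.52 ± 0.12 at 6 h against 2 h (adjusted p = 0.00325). These levels rest on 3624 counts over the 9 libraries, and 34 exonic bases are shared with a noncoding transcript on the same strand that had 12 counts.

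Nr1h2, the LXR beta gene (chromosome 7, 44549616 to 44553951, minus strand), moved the other way from Nr1h3 at 2 h. It had 112, 112 and 103 CPM in the LPA 2 h libraries and 109, 118 and 117 CPM in the LPA 6 h libraries, against 87.6, 90.7 and 87.6 CPM in untreated libraries. Every LPA library lay above every untreated library. The log2 fold change was 0.30 ± 0.05 at 2 h (adjusted p = 0.000521, edgeR) and 0.37 ± 0.05 at 6 h (adjusted p = 5.91e-05). The LPA 6 h and LPA 2 h libraries overlapped, and their difference of 0.08 (95% interval -0.03 to 0.18) did not pass the test.

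Per kilobase of exon, Nr1h2 stood at 32.4 ± 1.59 CPM per kb at 2 h, 34.2 ± 1.57 at 6 h and 26.4 ± 0.537 in untreated cells, and Nr1h3 at 2.31 ± 0.406, 3.35 ± 0.240 and 3.12 ± 0.259 in the same order. The beta receptor transcript was therefore the more abundant of the pair in every library. The log2 ratio of Nr1h3 to Nr1h2 counts within each library, which no scaling of libraries can alter, was -4.42, -4.00 and -4.29 at 2 h, -3.57, -3.84 and -3.88 at 6 h, and -3.35, -3.59 and -3.56 in untreated cells. It differed among the 3 groups by an exact permutation test over libraries (p = 0.00714, two-sided, adjusted p = 0.00714 over 3 ratios tested). That test ignores the replicate numbers. When assignments were kept within each number, the exact permutation p was 0.0278, the smallest that such assignments allow. The mean ratio was 0.74 lower at 2 h than in untreated cells, with no overlap, and 0.27 lower at 6 h, where the groups overlapped. With 3 libraries against 3, a pairwise exact test cannot go below 0.1.

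Abca1 (chromosome 4, 53030787 to 53159895, minus strand) encodes the transporter that loads cholesterol and phospholipid onto lipid-poor apolipoprotein A-I. Its proximal promoter holds the element through which LXR-RXR was shown to act on this gene, and the 250 bases before the start are printed here with those of Mylip, which was lower than in untreated cells at both times, for comparison. Sequences are from RefSeq (GRCm38.p6), 5′ to 3′ on the gene's strand, at chr4:53159896-53160145 (minus strand) for Abca1 and chr13:45389492-45389741 (plus strand) for Mylip. Capitals mark matches to GGTTA and GGTCA with 5 bases between them, the letters of the Abca1 element, and to TATAAA, each searched on both strands.
Abca1: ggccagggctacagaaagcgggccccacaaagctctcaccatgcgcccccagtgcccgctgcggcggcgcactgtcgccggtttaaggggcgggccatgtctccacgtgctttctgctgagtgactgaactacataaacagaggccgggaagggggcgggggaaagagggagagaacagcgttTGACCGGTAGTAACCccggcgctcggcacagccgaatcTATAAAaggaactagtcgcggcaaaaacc
Mylip: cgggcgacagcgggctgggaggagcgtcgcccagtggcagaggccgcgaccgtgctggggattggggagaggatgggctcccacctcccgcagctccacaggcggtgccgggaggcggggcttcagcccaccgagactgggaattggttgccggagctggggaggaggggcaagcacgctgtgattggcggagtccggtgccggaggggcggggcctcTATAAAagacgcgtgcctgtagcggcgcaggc

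The Abca1 element lies 67 to 53 bases before the start, on the strand opposite to the printed one, and these letters occur in 15 of 32851 promoter windows of that length (0.0457%). Since the letters were taken from the known Abca1 site, finding them there is no result. RefSeq windows matched 6 of the 7 genes, all but Abcg1, and none of the other 5 held the element or the consensus direct repeat of AGGTCA with 4 bases between the copies, which occurs in 5 windows (0.0152%). TATAAA, found in 12.4% of windows, stands 29 to 24 bases before the Abca1 start and 32 to 27 bases before the Mylip start. The cyclic AMP response element TGACGTCA, in 1.55% of windows, was in none of the members' windows, and the E-box CACGTG, in 6.02% of windows, was in that of Abca1 alone among the members. No match says only that these letters are not in this window.

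Abca1 had 797, 660 and 727 CPM in the LPA 2 h libraries, against 425, 368 and 382 CPM in the untreated ones. The lowest LPA 2 h library was well above the highest untreated library, with a log2 fold change of 0.89 ± 0.08 (SE, adjusted p = 8.9e-06, edgeR). At 6 h Abca1 had 640, 541 and 595 CPM, above every untreated library and below every LPA 2 h library. The log2 fold change at 6 h was 0.60 ± 0.08 against untreated cells (adjusted p = 0.000102), and -0.30 ± 0.08 for 6 h against 2 h (adjusted p = 0.0102). In each of the 3 groups replicate 1 was the highest and replicate 2 the lowest library for this gene.

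Abcg1 (chromosome 17, 31057675 to 31117988, plus strand) encodes the transporter that passes cholesterol on to mature high-density lipoprotein, and it usually rises together with Abca1 when LXR is activated. Here it had 159, 183 and 133 CPM in the LPA 2 h libraries, against 261, 240 and 232 CPM in untreated libraries. All 3 LPA 2 h libraries lay below all untreated libraries, the reverse of Abca1, with a log2 fold change of -0.62 ± 0.10 (adjusted p = 0.000797, edgeR). At 6 h Abcg1 had 268, 243 and 261 CPM, above every LPA 2 h library (0.70 ± 0.10 for 6 h against 2 h, adjusted p = 0.000378). Against untreated cells the 6 h libraries overlapped, and the log2 fold change of 0.08 had a 95% interval of -0.14 to 0.30.

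The log2 ratio of Abca1 to Abcg1 counts was 2.33, 1.85 and 2.45 in the LPA 2 h libraries, 1.25, 1.15 and 1.19 in the LPA 6 h libraries, and 0.70, 0.62 and 0.72 in the untreated libraries. No group overlapped another. The 3 groups differed by an exact permutation test over libraries (p = 0.00357, two-sided, the smallest that assignments of 9 libraries to 3 groups allow, adjusted p = 0.00714 over 3 ratios). With assignments kept within each replicate number, the exact permutation p was 0.0278, the smallest that such assignments allow. The mean ratio was 1.53 higher at 2 h and 0.52 higher at 6 h than in untreated cells. At 6 h the ratio thus lay toward Abca1 although Abcg1 itself did not pass the test against untreated cells. Per kilobase of exon, Abca1 and Abcg1 stood apart at 2 h, at 70.3 ± 6.61 and 25.2 ± 3.95 CPM per kb. In untreated cells they overlapped, at 37.8 ± 2.83 and 38.8 ± 2.37 CPM per kb.

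**Figure D2:**
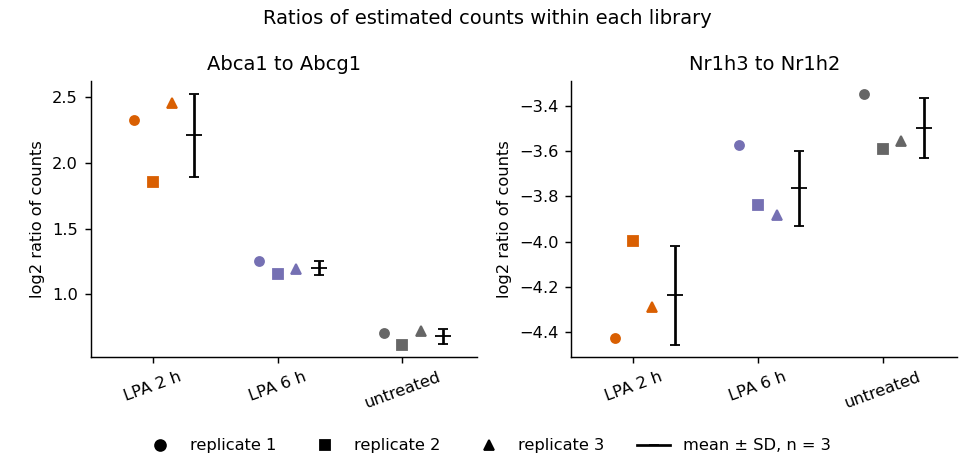
Log2 ratio of estimated counts of 2 genes within each library, by group, with replicate number as the symbol and mean ± SD beside the points (n = 3); the axes do not start at 0. The Abca1 to Abcg1 ratio is above 1.8 in every LPA 2 h library and below 0.8 in every untreated library, with the LPA 6 h libraries between them.

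Apoe (chromosome 7, 19696109 to 19699188, minus strand) encodes a secreted apolipoprotein that takes up exported cholesterol and is a classic macrophage product. It had 111, 131 and 103 CPM in LPA 2 h libraries, against 99.7, 113 and 95.8 CPM in untreated libraries. These groups overlapped, and the log2 fold change of 0.16 (95% interval -0.05 to 0.37) did not pass the test. At 6 h Apoe had 145, 131 and 128 CPM, above every untreated library, with a log2 fold change of 0.39 ± 0.09 (adjusted p = 0.00602, edgeR). Between 6 h and 2 h the log2 fold change of 0.23 had an adjusted p of 0.0695, and it passed without LPA 2 h replicate 2 (0.33, adjusted p = 0.00453). It also passed with the replicate number as a block (adjusted p = 0.0175), with DESeq2 (adjusted p = 0.0312) and with scaling by total counts (adjusted p = 0.0429). Of the 12 macrophage markers 4 rose and 6 fell at 6 h against untreated cells (26.4% and 25.7% of all tested rows). The part of macrophage content in the Apoe values was not tested. Of its neighbours in the apolipoprotein cluster, Apoc1 had 13 counts and Apoc4 had 1 count over all 9 libraries.

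Mylip (chromosome 13, 45389742 to 45412022, plus strand) was the 1 gene of the 7 that was called lower at both times. It had 43.4, 37.0 and 39.6 CPM in LPA 2 h libraries and 37.9, 33.9 and 37.7 CPM in LPA 6 h libraries, against 50.1, 45.5 and 46.6 CPM in untreated libraries. Every LPA library lay below every untreated library, with a log2 fold change of -0.25 ± 0.07 at 2 h (adjusted p = 0.012, edgeR) and -0.38 ± 0.07 at 6 h (adjusted p = 0.000541). The 2 h call was lost without untreated replicate 1 (adjusted p = 0.0553). For 6 h against 2 h the log2 fold change of -0.13 did not pass (adjusted p = 0.128). It passed with the replicate number as a block (-0.13, adjusted p = 0.029) and without LPA 2 h replicate 2 (-0.19, adjusted p = 0.0256).

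Lpcat3 (chromosome 6, 124663027 to 124704418, plus strand) rose step by step. It had 74.8, 86.3 and 70.4 CPM in LPA 2 h libraries, against 65.9, 66.5 and 62.7 CPM in untreated libraries. The groups did not overlap, with a log2 fold change of 0.25 ± 0.07 (adjusted p = 0.0122, edgeR). The call was lost without untreated replicate 3 (adjusted p = 0.0561), and without LPA 2 h replicate 2 the value was 0.16. At 6 h Lpcat3 had 101, 111 and 107 CPM, above every library of the other groups. The log2 fold change was 0.71 ± 0.07 against untreated cells (adjusted p = 4.5e-06) and 0.46 ± 0.07 for 6 h against 2 h (adjusted p = 0.000223). The 95% interval at 6 h against untreated cells, 0.56 to 0.86, overlapped that of Abca1, 0.42 to 0.78. The libraries are not stranded, and 334 exonic bases of Lpcat3 overlap Emg1 on the opposite strand, whose reads cannot be told apart there. Emg1 did not rise with Lpcat3, with log2 fold changes of -0.20 ± 0.07 at 2 h and -0.09 ± 0.07 at 6 h against untreated cells.

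**Figure D3:**
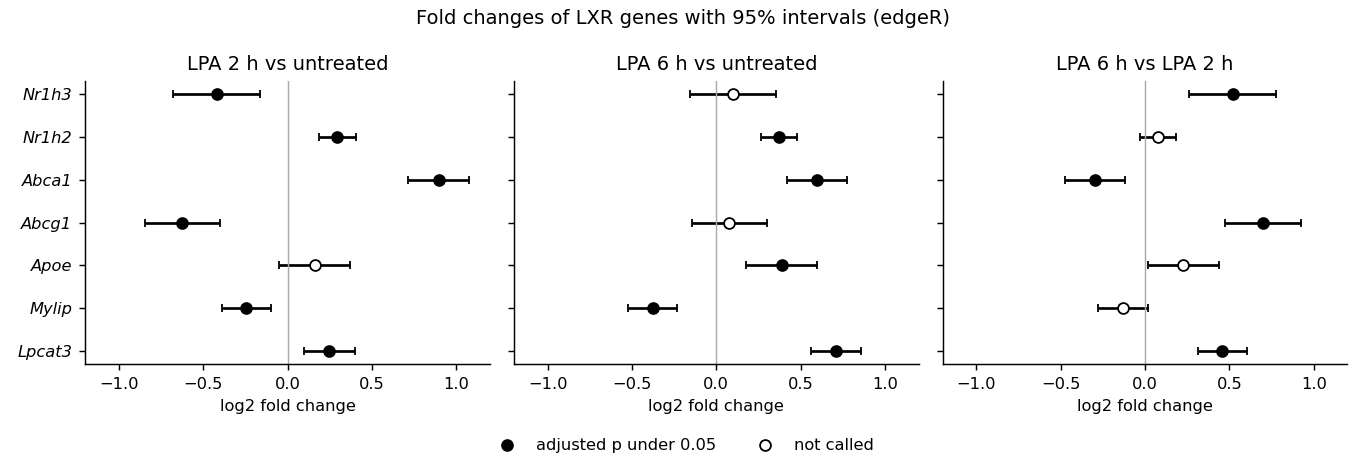
Log2 fold changes of the 7 LXR genes from the edgeR fit across all tested rows, with 95% intervals; filled points passed an adjusted p under 0.05 and open points did not. Of the called genes at 2 h, 3 lie right and 3 left of 0, and at 6 h against untreated cells Mylip is the one called gene left of 0.

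In order of level per kilobase of exon, Abca1 came first at 2 h, overlapping with Apoe, followed by Nr1h2 and then Abcg1, which overlapped with Lpcat3. At 6 h Apoe led at 67.3 ± 4.65 CPM per kb, ahead of Abca1 and Abcg1, and Nr1h2 overlapped with Lpcat3. In untreated cells Apoe led at 51.4 ± 4.64 CPM per kb, followed by Abcg1 and Abca1, which overlapped, then Nr1h2 and Lpcat3. Mylip and Nr1h3 were sixth and last in each group. The order of the other genes depends on the length used. With mean transcript length, Apoe came first at 2 h, at 133 CPM per kb and overlapping with Abca1 at 132, and Nr1h2 was second in untreated cells.

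The genes whose log2 CPM followed each LXR gene most closely over the 9 libraries were picked by Pearson's r among 9296 genes with at least 5 CPM. The 9 points fall into 3 groups, so r mostly reflects the group levels, and it is given without a test. Abca1 was most like Crebrf (r = 0.994), Ifngr1 (0.991), which encodes the ligand-binding chain of the interferon gamma receptor, and Fmo1 (0.99), a flavin monooxygenase gene. Abcg1 was most like Atf7ip (0.993), Pde4a (0.992), a cyclic AMP phosphodiesterase gene, and the transporter gene Abcc5 (0.991). Nr1h3 was most like Gramd4 (0.982), Fam117a (0.98) and Serpinb8 (0.976), and Nr1h2 was most like Bsdc1 (0.991), Anapc7 (0.989) and Tprgl (0.989). Apoe was most like Ptprn (0.97), Mylip most like Tmem165 (0.976), and Lpcat3 most like Fam210b (0.995). Among the LXR genes themselves, Abcg1 and Nr1h3 ran most closely together (r = 0.95), while Abca1 had r = -0.62 with Abcg1.

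The partners of LXR were examined in a list of 18 genes for RXR, co-repressors and co-activators, of which 17 were tested. At 2 h 7 were lower and 2 higher against untreated cells (19.2% and 19.3% of all tested rows), and at 6 h 2 were lower and 4 higher (25.7% and 26.4% of all rows). Rxra, the main RXR gene of myeloid cells, averaged 53.5 ± 3.18 CPM at 2 h, 72.3 ± 2.21 at 6 h and 65.7 ± 2.61 in untreated cells. It was thus lower at 2 h (-0.30) and higher at 6 h (0.14) than in untreated cells, both called. Ncoa3, a steroid receptor co-activator gene, averaged 96.3 ± 7.93 CPM at 2 h, 136 ± 5.33 at 6 h and 139 ± 4.44 in untreated cells. Rxrb, another RXR gene, was called higher at both times (0.20 and 0.55). Its 2 h call was close to the threshold (adjusted p = 0.043, edgeR), and the 2 h libraries overlapped the untreated ones. The arginine methyltransferase gene Prmt3 did not pass at 2 h and fell by 0.91 on the log2 scale at 6 h.

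Of 25 other LXR targets listed, 18 were tested. Of these, 5 were higher and 5 lower at 2 h (19.3% and 19.2% of all tested rows), and 7 were higher and 9 lower at 6 h against untreated cells (26.4% and 25.7% of all rows). The lipid synthesis targets fell at both times: the fatty acid synthase gene Fasn averaged 106 ± 9.49 CPM at 2 h, 153 ± 4.63 at 6 h and 262 ± 12.0 in untreated cells, and Scd1, Scd2 and Acaca were also called lower at each time. Srebf1, the LXR target that drives these enzymes, did not pass at 2 h (-0.07) and was lower at 6 h (-0.26). Lpl, which encodes lipoprotein lipase, averaged 4697 ± 577 CPM at 2 h, 2287 ± 58.6 at 6 h and 5467 ± 170 in untreated cells. Targets outside lipid synthesis also fell: Abcc1 (-1.34), Cd38 (-1.29) and Tmem135 (-0.23) were called lower at 6 h and did not pass at 2 h. Upward moves were seen in Tgm2, a transglutaminase gene (log2 fold change 2.55 at 2 h and 3.31 at 6 h), and in Plin2, which coats lipid droplets (1.54 and 2.88). Smaller rises at both times were seen in Arl4c (0.42 and 0.24), which acts in cholesterol transport to the membrane, Smpdl3a (0.21 and 0.43), a phosphodiesterase gene, and the chemokine receptor gene Ccr7 (0.41 and 0.42). The lipid transfer protein gene Pltp (0.44) and the efferocytosis receptor gene Mertk (0.73) were called higher at 6 h and did not pass at 2 h. Mertk is also one of the 12 macrophage markers and Ccr7 one of the 14 dendritic cell markers.

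Of 10 tested genes that make, remove or sense sterol ligands of LXR, 1 was higher and 5 lower at 2 h (19.3% and 19.2% of all tested rows), and 2 were higher and 4 lower at 6 h (26.4% and 25.7% of all rows). Ch25h, which makes 25-hydroxycholesterol and is interferon-inducible, averaged 1.39 ± 0.356 CPM at 2 h, 1.65 ± 0.227 at 6 h and 3.93 ± 0.771 in untreated cells. Its log2 fold changes of -1.48 and -1.28 were both called. The sterol desaturase gene Sc5d was lower at 2 h (-0.46) and 6 h (-0.65). Cyp27a1, which makes 27-hydroxycholesterol, was near 10 CPM in all groups and did not pass in any comparison. Gpr183, which encodes the receptor for oxysterol chemoattractants, was lower at 2 h (-0.36) and did not pass at 6 h (0.01).

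Genes of lysosomal cholesterol egress, storage and other export gave 3 higher and 6 lower of 23 tested at 2 h (19.3% and 19.2% of all tested rows), and 6 higher and 8 lower at 6 h (26.4% and 25.7% of all rows). Soat1, which esterifies cholesterol for storage, was lower at both times (-0.53 and -0.19). Nceh1, which hydrolyses stored cholesteryl ester, did not pass at 2 h and averaged 369 ± 7.43 CPM at 6 h against 234 ± 9.30 CPM in untreated cells (0.65). The lysosomal membrane gene Scarb2 averaged 189 ± 27.3 CPM at 2 h, 303 ± 5.63 at 6 h and 131 ± 6.03 in untreated cells, called higher at both times, and Npc1, the lysosomal cholesterol exporter, was lower at 2 h (-0.20) and higher at 6 h (0.22). Among the ABCA and ABCG families, Abca1 and Abcg1 had the smallest p-values at 2 h of 14 tested members. At 6 h, 2 of the 14 were higher (26.4% of all rows), Abca1 and the little expressed Abca5 (0.86), and 1 was lower (25.7% of all rows), Abcg3, at 0.129 ± 0.0674 CPM at 6 h and 0.838 ± 0.155 CPM in untreated cells. The other 8 of the 22 listed were below the filter, Abcg5 and Abcg8 among them.

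Substrates of Mylip and genes that control lipoprotein uptake gave 2 higher and 4 lower of 10 tested at 2 h (19.3% and 19.2% of all tested rows), and 2 higher and 6 lower at 6 h against untreated cells (26.4% and 25.7% of all rows). Lrp8, which encodes a lipoprotein and reelin receptor that IDOL acts on, averaged 36.6 ± 3.97 CPM at 2 h, 22.5 ± 0.764 at 6 h and 34.7 ± 2.91 in untreated cells. It did not pass at 2 h (log2 fold change 0.07) and was called lower at 6 h (-0.63). Vldlr, another receptor of this kind, had 60 counts in all and was below the filter.

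Genes of the SREBP2 axis, which drives cholesterol synthesis and uptake, were lower in 12 of 16 cases at 2 h (19.2% of all tested rows) with 0 higher (19.3% of rows), and lower in 14 of 16 at 6 h (25.7% of rows) with 2 higher (26.4% of rows). Their median log2 fold change was -0.30 at 2 h and -0.64 at 6 h. Srebf2 itself averaged 181 ± 7.80 CPM at 2 h, 170.5 ± 10.3 at 6 h and 220 ± 16.4 in untreated cells. The synthesis genes Fdft1 (-0.78 and -0.95) and Hmgcs1 (-0.77 and -0.78) had the smallest p-values of the list at 2 h, and Mvk at 6 h (-1.14). The 2 genes that rose at 6 h were Scap (0.55) and Insig2 (0.32), which sense sterol in the endoplasmic reticulum. Without LPA 2 h replicate 2, 9 of the 16 genes were lower at 2 h.

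**Figure D4:**
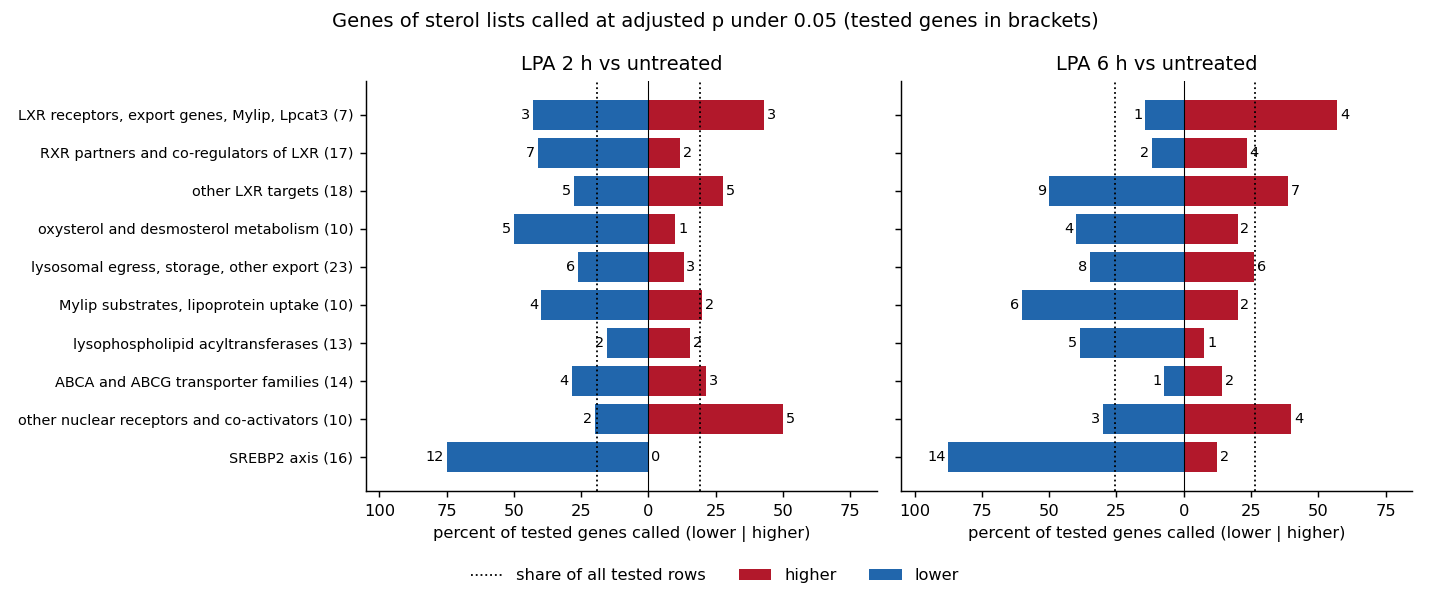
Percent of the tested genes of each list called higher (right) or lower (left) than in untreated cells at 2 h and 6 h, with counts at the bar ends and the share of all tested rows as dotted lines. The SREBP2 axis has 12 of 16 genes lower at 2 h and 14 at 6 h, while the 7 LXR genes lie on both sides.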

How the data were processed

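Gene-level estimated counts of 9 libraries came in 1 table as the authors deposited it, with no depth scaling. The tools named per the submitters' processing notes are RSEM 1.2.3 and DESeq2, with build mm10. RSEM shares out reads that fit more than 1 transcript, so close paralogs can trade reads. For aligner and annotation, a name was not given in the sources used here. Per the labels' protocols, libraries were non-stranded TruSeq mRNA libraries.

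Rows were matched by transcript identifier to GENCODE M21 (GRCm38): 37776 rows matched 1 gene and held 98.46% of counts. Counts were rounded, filtered with filterByExpr (minimum count 10, total 15), scaled by TMM and fitted over all 9 libraries with 1 mean per group in edgeR 4.0.16 (glmQLFit, robust; R 4.3.3). SEs were derived from each log2 fold change and its F statistic, and intervals are at 95%. CPM, counts scaled to a common library total, uses TMM-scaled totals, and CPM per kb divides by the union of exons. Ratios used counts plus 0.5. The fit was tested on simulated data. The p-values cover only spread between libraries. Named genes were the 7 LXR genes, Srebf1, Ch25h, Rxra and, per list, the 2 called genes with the smallest p in each comparison with untreated cells and 1 between the times. Some genes that this rule names, and 1 of the 3 ratios, are not reported here. Scd1, Scd2, Acaca, Plin2, Arl4c, Smpdl3a, Ccr7, Pltp, Mertk, Cyp27a1, Npc1, Abca5, Vldlr, Apoc1, Apoc4, Srebf2, Scap, Insig2 and Pparg fall outside that rule and were chosen after their values were seen. So do Abcc1, Cd38, Tmem135 and the markers Lyz2, Cd14, Fcgr1, Ciita, Batf3 and Clec9a, also chosen after their values were seen. The 7 genes and all lists were chosen with earlier results of these data known.

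No library repeated another: chi-square per degree of freedom was 7.2 to 33.3 between replicates. Libraries with the same number deviated together, with correlations of 0.144 to 0.178 between 6 h and untreated cells, over 0.1 in all 3 pairs. The numbers were thus taken to pair those libraries, from the data and not the labels. The main fit and the main ratio tests nevertheless ignored the numbers, and results with the replicate number as a block are given as an alternative. For 2 h against untreated (0.09 to 0.184) and 6 h against 2 h (0.035 to 0.128) not all 3 were over 0.1, and no pairing was taken. At 2 h against untreated, however, every same-number correlation lay above all those of different numbers (-0.148 to -0.031). A pairing there thus remains possible. Alternatives were other scalings, filters and tools, the replicate block, only the 6 libraries compared, summed rows, and leaving out each library.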

Additional observations from a re-analysis of the deposited data

Results flagged for a closer look

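In 4 of the 7 LXR genes the level differed between LPA 6 h and LPA 2 h libraries (quasi-likelihood test of edgeR, Benjamini-Hochberg adjusted over all tested rows, of which 48.7% were called). Untreated cells have no stated time, so a changing effect of LPA and time in culture cannot be told apart. Abca1 was lower at 6 h than at 2 h (log2 fold change -0.30, adjusted p = 0.0102), in 3 of 3 libraries against all of the LPA 2 h libraries. Abcg1 was higher at 6 h than at 2 h (0.70, adjusted p = 0.000378), as were Nr1h3 (0.52, adjusted p = 0.00325) and Lpcat3 (0.46, adjusted p = 0.000223), again without overlap between the groups.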

How the results depend on the processing

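Leaving out 1 library ended the 2 h calls of Nr1h3 (range -0.59 to -0.34), Mylip (-0.31 to -0.19) and Lpcat3 (0.16 to 0.31) in the cases named with each gene, so that 4 to 6 LXR genes were called at 2 h, 4 of them without untreated replicate 1. Between 6 h and 2 h, Apoe (0.15 to 0.33) and Mylip (-0.19 to -0.072) were called without LPA 2 h replicate 2. Apoe in that comparison was also called with total counts only (0.28), with DESeq2 1.42.0 (0.23) and with the replicate block (0.23), and Mylip with the replicate block (-0.13). The block changed no other call of an LXR gene. Among the 7 genes, the 3 ratios and the counts of calls, 245 of the other values kept direction and side of the threshold or stayed within 1.5 times, as did 264 of those with 1 library left out. The list counts without LPA 2 h replicate 2, an alternative chosen after seeing the data, stayed within 1.5 times. Nr1h3 has the fewest counts and the widest intervals, and small changes such as that of Apoe at 2 h were not detectable at this spread.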

Other observations

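Among 10 tested genes for other nuclear receptors and co-activators that act on Abca1 or Nr1h3, 5 were higher and 2 lower at 2 h against untreated cells (19.3% and 19.2% of all tested rows), and 4 were higher and 3 lower at 6 h (26.4% and 25.7% of all rows). Ppargc1a, a co-activator gene known for mitochondrial biogenesis, averaged 0.642 ± 0.151 CPM at 2 h, 0.655 ± 0.162 at 6 h and 0.0593 ± 0.0272 in untreated cells (SD, n = 3 each). It is among the genes counted higher at both times, but it passed the filter on low counts through the LPA libraries alone. Its log2 fold changes of 3.46 and 3.52 thus rest on a level near 0 in untreated cells (0.0302 to 0.0841 CPM) and are no firm measure of size. The retinoic acid receptor gene Rara was higher at both times (0.59 and 0.57). Pparg, a lipid-sensing receptor gene that acts upstream of Nr1h3 in macrophages, was lower at both times (-0.57 and -0.41). Nr1d2, which encodes the circadian repressor REV-ERB beta, averaged 49.8 ± 9.29 CPM at 2 h, 22.3 ± 1.25 at 6 h and 29.6 ± 2.03 in untreated cells, so it was higher at 2 h (0.75) and lower at 6 h (-0.41).

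The lysophospholipid acyltransferase genes other than Lpcat3 gave 2 higher and 2 lower of 13 tested at 2 h (19.3% and 19.2% of all tested rows), and 1 higher and 5 lower at 6 h (26.4% and 25.7% of all rows). Lpcat1, which acts on lysophosphatidylcholine, averaged 33.6 ± 7.19 CPM at 2 h, 64.3 ± 2.25 at 6 h and 56.1 ± 0.548 in untreated cells. It was called lower at 2 h (-0.73) and did not pass at 6 h (0.20). Lpcat2, which also makes platelet-activating factor, did not pass at 2 h (0.09) and was lower at 6 h (-0.61). Agpat4, whose family converts LPA to phosphatidic acid, was higher at 2 h (0.28) and at 6 h (0.14), and Agpat5 was lower at 6 h (-0.25). Between 6 h and 2 h, Lpcat1 was 0.93 higher on the log2 scale and Lpcat2 had a log2 fold change of -0.70.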
